A study of Mus musculus with 36 samples.

Results

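The main olfactory epithelium (MOE) of 3 pools of sex-separated females (SF) was compared with that of 3 pools of sex-separated males (SM) by RNA-seq, in 6 of the 36 libraries of the series. The members were chosen by their labels, and a further 6 MOE libraries, from sex-combined females (CF) and males (CM), entered the same fit and are given where they bear on a result. All mice were C57BL/6, were weaned at 3 weeks, lived 4 to a cage and were 6 months old when the tissue was taken. The sex-separated cages stood in rooms that held 1 sex, so that sex and room cannot be told apart in this comparison. The sex-combined cages held both sexes, and the study states that pups born there were killed soon after birth. Breeding and housing can therefore not be told apart in CF. Each library held RNA of 2 mice according to the labels (the study's own text is not uniform on this number), and was made from total RNA after removal of ribosomal RNA. The values are FPKM, numbers of sequenced fragments scaled by transcript length and library size, summed per gene. Log2 differences below are SF minus SM after adding 0.5 to each FPKM, so that those of weakly expressed genes come out too small.

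The MOE lines the roof and turbinates of the nasal cavity. Mature olfactory sensory neurons, each of which uses 1 or few of the odorant receptor genes, lie above immature neurons and basal stem cells, and sustentacular cells and Bowman glands supply the enzymes and mucus in which odorants dissolve. A dissected MOE also brings along respiratory epithelium, nasal glands, bone, cartilage, vessels and blood. In such bulk tissue, fewer cells of a type and less RNA per cell cannot be told apart.

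Marker genes matched the labels of sex and tissue. Xist, the RNA of the inactive X chromosome, read FPKM 12.5 to 16 in SF and at most 0.0167 in SM. The Y-linked Ddx3y was listed at 0 in the 3 SF libraries and read 10.5 to 12.1 in SM. Omp, the marker of mature olfactory neurons, read 1110, 758 and 1120 in SF and 1060, 1010 and 1020 in SM. The 6 libraries rested on an estimated 5101899 to 5902159 fragments each, and the other 6 MOE libraries on 3016524 to 5752782. Over the 13323 autosomal genes whose FPKM averaged 0.5 or more, the median difference was -0.023. MOE-CM3 stood apart, with a median deviation of -0.512 from the gene means against -0.128 to 0.164 in the other 11 libraries. It enters the filter, the gene means and the estimate of spread, and the CF and CM results: without it the calls between CF and CM went from 1 to 4 and those of the interaction from 5 to 8.

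Between SF and SM, 8 of 13323 autosomal genes passed an adjusted p of 0.05 (0.06%; limma, Benjamini-Hochberg over all genes tested), of which 3 were higher (0.0225%) and 5 lower (0.0375%) in SF. At an unadjusted p under 0.05 stood 4.14% of genes, of which 127 were higher and 425 lower in SF. That split was not stable, with 170 higher and 172 lower without MOE-SF2, 717 and 807 without MOE-CM3, and 1087 and 894 after quantile normalization. The 3 SF libraries all lay above the 3 SM libraries for 7.51% of genes (wholly higher, below) and all below them for 6.61% (wholly lower). Between CF and CM, 1 gene passed (0.00751%; limma) and 1.67% stood at an unadjusted p under 0.05, and the interaction of sex and housing passed for 5 genes (0.0375%). In simulated data of 13757 genes the same fit found 69.5% of those given a log2 change of 1 and 98.5% of those given 2. The simulated noise was normal and independent between genes and libraries, without shifts of whole libraries or listed zeros. These shares may therefore not hold for the real libraries. Of the 8 genes, 4 (Bbof1, Mir682, Rbm14 and Scamp3) were listed at FPKM 0 in all libraries of one sex and are given further below.

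Among autosomal genes above 0 in all libraries, the smallest p belonged to 2310057J18Rik, which RefSeq also lists as Leg1, a secreted protein gene first described as enriched in liver (chromosome 10, 28692094 to 28706112, mm9). It read FPKM 35.1, 51.3 and 49.4 in SF and 263, 162 and 244 in SM. The groups were far apart, and the gene fell by 2.28 ± 0.275 (SE) in SF against SM, with an adjusted p of 0.000486 (limma). The same split stood in the sex-combined mice, with 37.5, 54.0 and 51.8 in CF and 337, 364 and 207 in CM, and the interaction of sex and housing had an adjusted p of 0.999 (limma). The vomeronasal organ also held the transcript at 169 to 446 in SF and 527 to 613 in SM, whereas in the olfactory bulb no library exceeded 1.88.

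Crisp1, a cysteine-rich secretory protein best known from the epididymis, was higher in females (chromosome 17, 40430707 to 40456156, mm9). Its FPKM was 69.9, 111 and 94.8 in SF and 21.7, 15.2 and 17.7 in SM, groups that did not overlap. It rose by 2.29 ± 0.311 (SE), with an adjusted p of 0.00199 (limma). In CF it read 41.8, 89.1 and 97.3 and in CM 49.8, 34.9 and 25.5, which overlapped. The interaction had an unadjusted p of 0.00927 and an adjusted p of 0.985 (limma), so that a difference between housings did not hold up over all genes. 2310057J18Rik and Crisp1 each passed the adjusted threshold in all 25 alternative fits, with adjusted p-values (limma) of at most 0.00853 and 0.0464.

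**Figure D1:**
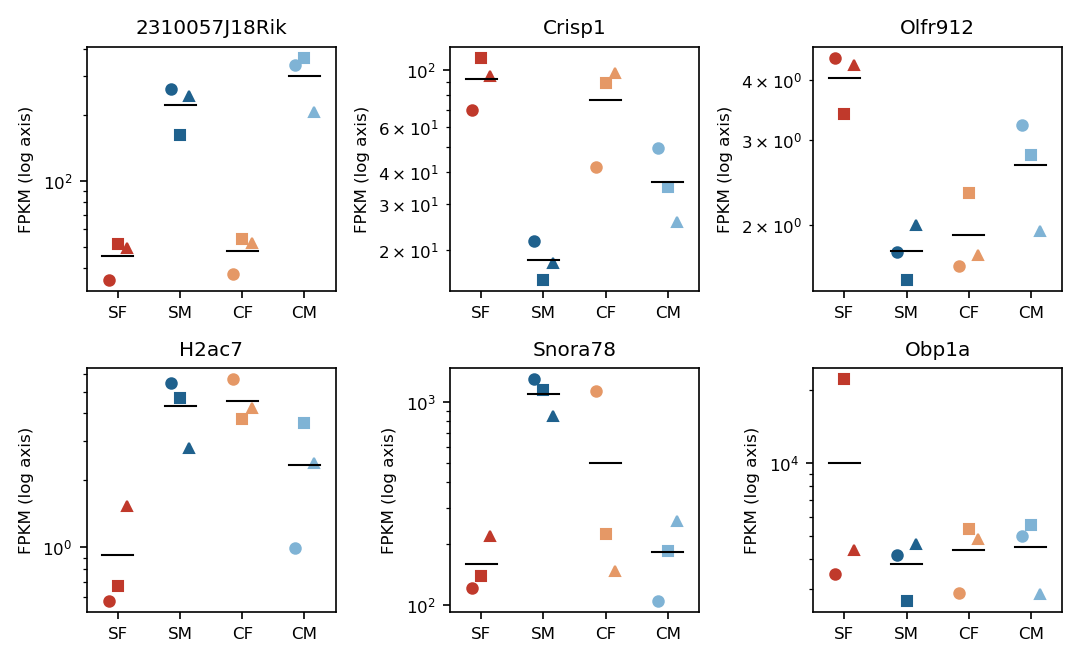
FPKM on log axes (y) of 6 genes in the 3 libraries of each MOE group (x); symbols mark replicates 1 (circle), 2 (square) and 3 (triangle), and bars mark group means. 2310057J18Rik splits by sex under both housings, Crisp1 separates SF from SM, Snora78 is high in the SM libraries and in MOE-CF1, and Obp1a, on the X chromosome, is at 22200 in MOE-SF2.

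Secretory glands of the nose supply odorant-binding lipocalins, major urinary proteins and BPI-fold proteins, and here 1 female library stood apart. Obp1a, an X-linked odorant-binding protein, read FPKM 3470, 22200 and 4360 in SF and 4180, 2680 and 4620 in SM, and Obp1b, its neighbour in function, read 1920, 12400 and 2000 against 1770, 1060 and 2070. MOE-SF2 was thus the only library of the 12 far above the others. The BPI-fold gene Bpifb9a read 1.47, 1490 and 5.82 in SF and 8.51, 16.4 and 365 in SM, and was therefore high in MOE-SF2 and, to a lesser degree, in MOE-SM3. Odam read 24.2 in MOE-SF2, 7.26 in MOE-SM3 and at most 0.668 in the other 10 MOE libraries. Mup4, a major urinary protein expressed in nasal glands, read 750, 7550 and 903 in SF and 2030, 1480 and 2590 in SM.

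Mup5 showed how far this library decides a value. It read 52.9, 3700 and 46.9 in SF and 484, 351 and 393 in SM. With all libraries its difference was -0.95, with an unadjusted p of 0.386, whereas without MOE-SF2 it was -3.01, with an adjusted p of 0.00208 (limma). In the sex-combined mice it read 167 to 362 in CF and 321 to 841 in CM, which overlapped. Over the list of nasal and Bowman gland secretion, 8 of 17 members had a higher mean in SF and 9 a lower one, and the median was -0.01 with all libraries and -0.21 without MOE-SF2.

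Lacrimal and salivary gland genes had a median of 0.28, and of 0.01 without MOE-SF2. Of 12 members, 11 were higher in SF (beside 44.8% of all genes) and 3 wholly higher (beside 7.51%). Crisp1 was the only member past the adjusted threshold. Scgb2b24, a secretoglobin, read 1.6, 1.86 and 1.06 in SF and 1.05, 0.471 and 0.411 in SM (difference 0.83, adjusted p 0.743, limma), on 3 to 14 estimated fragments. Dcpp1, of the demilune cell and parotid protein family, read 1.02, 0.734 and 0.779 against 0.696, 0.369 and 0.332 (difference 0.49), on 3 to 9 estimated fragments. Amy1, the salivary amylase, read 1.54, 1.10 and 1.54 against 1.22, 1.03 and 1.02 (difference 0.25). The prolactin-induced protein Pip read 15, 158 and 17.3 against 18.7, 8.75 and 24.9, so that its mean again followed MOE-SF2. Another gene of this kind, A630073D07Rik, read 4.50, 86.3 and 6.04 in SF and 0.842, 0.443 and 3.05 in SM, with an adjusted p of 0.318 (limma).

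Of 20 autosomal markers of mature olfactory sensory neurons tested, 0 passed the adjusted test and 0 had an unadjusted p under 0.05 (limma). The mean was lower in SF for 17 of them (44.8% of all genes had a higher and 55.2% a lower mean), and the median was -0.15 with all libraries and 0.02 without MOE-SF2. Omp differed by -0.08 and Gnal, the olfactory G protein, by -0.24, with FPKM 90.1, 57.2 and 92.0 in SF and 84.6, 90.8 and 101 in SM. Stoml3, a stomatin-like protein of olfactory cilia, read 297, 172 and 297 in SF and 316, 319 and 313 in SM. Pde4a, a cAMP phosphodiesterase, read 5.49, 2.85 and 5.86 against 6.67, 6.50 and 6.72, and Slc17a6, the vesicular glutamate transporter, 23.1, 18.7 and 23.5 against 24.5, 23.6 and 25.1. In these 3 genes the groups did not overlap, with unadjusted p-values of 0.192, 0.060 and 0.428 (limma). MOE-SF2 was the lowest of the 6 libraries in all of the genes just named.

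Immature neurons gave a median of -0.09 over 16 genes and neuronal progenitors -0.13 over 10, but without MOE-SF2 these medians were 0.07 and 0.01. Markers of the supporting epithelium had medians of 0.03 over 16 sustentacular genes and 0.08 over 11 genes of horizontal basal cells. Jchain, the joining chain of secreted immunoglobulins, read 2.37, 4.18 and 1.38 in SF and 4.07, 10.7 and 7.24 in SM, an overlap by 1 library, with an unadjusted p of 0.000833 (limma). It was the only one of 4 plasma and B cell markers tested with an unadjusted p under 0.05. Synpr, a synaptic vesicle gene taken as a marker of bulb neurons, read 1.72, 1.01 and 2.16 against 2.50, 2.76 and 2.98 (unadjusted p 0.00978, limma), whereas the bulb markers Gad1 and Gad2 were below the filter.

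**Figure D2:**
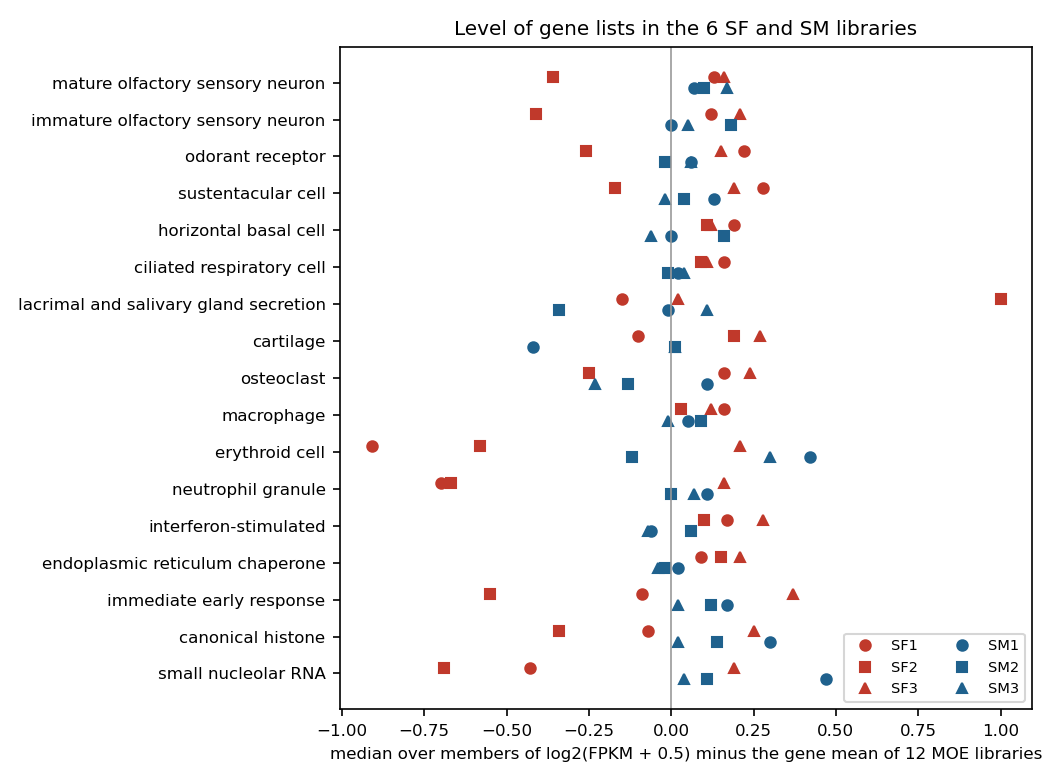
Level of 17 gene lists in the 6 libraries, given on the x axis as the median over the members of the log2 deviation from the gene's mean over 12 MOE libraries; red symbols are SF, blue symbols SM, and shapes mark replicates. The SF libraries spread more widely than the SM libraries in most lists, with MOE-SF2 at -0.36 for mature neurons and at 1.0 for lacrimal and salivary gland genes, and the medians of erythroid and neutrophil genes low in MOE-SF1 and MOE-SF2.

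Of 1119 odorant receptor genes in the table, 630 were autosomal and passed the filter, with a median of -0.01. The mean was higher in SF for 312 and lower for 318. An unadjusted p under 0.05 was found for 29 receptors higher in SF (4.6%) and 32 lower (5.08%), beside 0.953% and 3.19% of all genes. After the correction for transcript GC described below, the shares were 3.81% and 9.21% of receptors beside 6.73% and 6% of all genes, so that the excess of higher receptors did not remain. That correction also takes out the overall shift of each library, so that the part of GC in this change cannot be told apart. Of the receptors 4.76% lay wholly higher and 7.46% wholly lower, beside 7.51% and 6.61% of all genes, so that the share wholly higher was the smaller one among receptors. Summed over all receptors, the FPKM was 1760, 1120 and 1640 in SF and 1540, 1430 and 1510 in SM, so that the females held both the highest and the lowest of the 6 sums.

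Olfr912 on chromosome 9 was the only receptor past the adjusted threshold. It read FPKM 4.43, 3.4 and 4.28 in SF and 1.76, 1.54 and 2.00 in SM, and rose by 1.0 ± 0.185 (SE; adjusted p 0.0499, limma) on 18 to 52.7 estimated fragments per library. It passed the threshold in 13 of the 25 alternative fits, with an adjusted p (limma) of 0.0653 without MOE-SF2 and of 0.362 at the highest, without MOE-SM2. In the sex-combined mice the order of means was the other way, at 1.65, 2.33 and 1.74 in CF and 3.23, 2.80 and 1.95 in CM, and the interaction had an adjusted p of 0.128 (limma). Olfr1295 on chromosome 2 read 5.93, 6.45 and 6.16 in SF and 2.22, 2.37 and 2.63 in SM (difference 1.20, adjusted p 0.0713, limma). Olfr910 and Olfr787 also lay higher in each SF library than in any SM library, with differences of 0.68 and 0.84.

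In the other direction, Olfr213 on chromosome 6 read 5.41, 4.87 and 6.22 in SF and 10.5, 9.36 and 8.33 in SM (difference -0.72, adjusted p 0.318, limma). Olfr1419, Olfr1437 and Olfr235, all with low values, had differences of -0.96, -1.07 and -1.0, and their groups did not overlap. By chromosome, the median difference was 0.19 over 37 receptors on chromosome 10, of which 26 were higher in SF and 8 against 1 did not overlap. It was 0.02 over 191 receptors on chromosome 2, where 6 lay wholly higher and 16 wholly lower, and 0.02 over 52 on chromosome 9, where 6 lay wholly higher and 1 lower. Beside these counts, 7.51% of all genes lay wholly higher and 6.61% wholly lower, and 4.76% and 7.46% of all 630 receptors. Counts of the other chromosomes are not given here. Neighbouring receptor genes share sequence and may share reads. The counts by chromosome are descriptions only, and a difference between chromosomes was not tested.

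**Figure D3:**
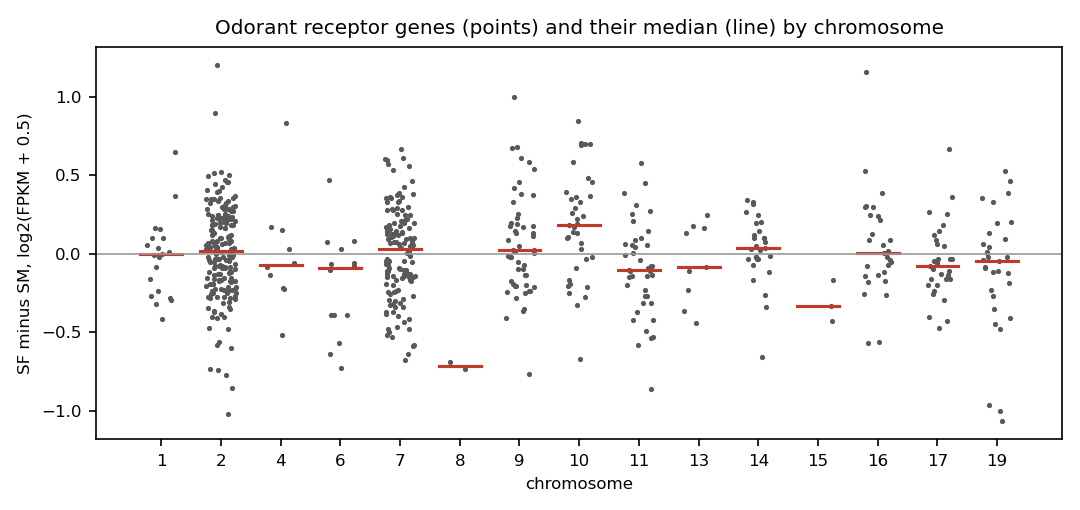
Difference SF minus SM on the log2(FPKM + 0.5) scale (y) of the 630 odorant receptor genes tested, by chromosome (x); each point is a gene, spread sideways at random, and red lines are medians. Chromosomes with more than 25 receptors have medians between -0.10 and 0.19, and genes lie on both sides of 0 on each of them.

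Small nucleolar RNAs (snoRNAs) guide the chemical modification of ribosomal and other RNAs, and most are cut from the introns of host genes. Of 115 in the table, 80 were autosomal and passed the filter, and their median difference was -0.48, and -0.29 without MOE-SF2 or -0.27 without MOE-SM1. An unadjusted p under 0.05 was found for 18 that were lower in SF (22.5%, beside 3.19% of all genes) and 3 that were higher (3.75%, beside 0.953%), and none passed the adjusted threshold. Wholly lower were 15 (18.8%, beside 6.61%) and wholly higher 4 (5%, beside 7.51%). As the median deviation from the gene means, the list stood at -0.43, -0.69 and 0.19 in SF and 0.47, 0.11 and 0.04 in SM, so that MOE-SF3 lay above 2 of the male libraries. Many were listed at 0 in some library. Among the 43 above 0 in all 12 MOE libraries, the median was -0.47, 28 were lower in SF, and 12 lay wholly lower and 2 wholly higher. The annotated length had a median of 127 bases. The lowest estimated fragment number of each snoRNA in the SF and SM libraries had a median of 1 over the snoRNAs, so that single values are imprecise.

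The 6 H/ACA snoRNAs with the smallest p among those above 0 throughout and not overlapping were Snora78, Snora44, Snora15, Snora21, Snora68 and Snora52. H/ACA snoRNAs direct the change of uridine to pseudouridine and end in the trinucleotide ACA 3 bases from the 3′ end. In the GENCODE M21 transcripts, 5 of the 6 do so, and these are printed 5′ to 3′ with that box in capitals, to show which RNAs these values belong to.
Snora78: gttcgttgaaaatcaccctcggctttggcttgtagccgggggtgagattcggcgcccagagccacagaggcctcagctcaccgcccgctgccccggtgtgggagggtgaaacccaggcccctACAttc
Snora15: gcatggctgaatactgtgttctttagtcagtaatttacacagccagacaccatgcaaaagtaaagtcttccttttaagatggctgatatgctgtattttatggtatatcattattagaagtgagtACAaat
Snora21: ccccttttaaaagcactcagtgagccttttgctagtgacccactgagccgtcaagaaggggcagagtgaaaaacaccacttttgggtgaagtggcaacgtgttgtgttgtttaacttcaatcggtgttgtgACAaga
Snora68: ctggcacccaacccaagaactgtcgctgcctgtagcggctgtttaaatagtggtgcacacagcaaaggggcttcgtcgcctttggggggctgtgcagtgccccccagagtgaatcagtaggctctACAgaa
Snora52: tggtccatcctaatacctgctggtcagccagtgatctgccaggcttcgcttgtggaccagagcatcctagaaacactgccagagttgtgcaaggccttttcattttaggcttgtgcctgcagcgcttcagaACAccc

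Snora78 (chromosome 17, 24856621 to 24856777, mm9) read FPKM 121, 139 and 217 in SF and 1290, 1140 and 849 in SM, a difference of -2.80 with an adjusted p of 0.069 (limma). Snora44 (chromosome 4, 131865868 to 131865984, mm9) read 387, 393 and 518 in SF and 1380, 1140 and 1280 in SM, a difference of -1.56 with an adjusted p of 0.129 (limma). Both rested on more fragments than other snoRNAs, 32.7 to 380 and 25.8 to 124. Snora15 read 15.7, 59.7 and 54.3 against 226, 243 and 87.8, Snora21 147, 122 and 243 against 435, 398 and 301, Snora68 246, 60.5 and 556 against 734, 1120 and 890, and Snora52 32.5, 17.7 and 54.8 against 116, 105 and 113. Snora16a, the other first-listed member, differed by -0.18, and Snord110 was listed at 0 in the SF libraries and at 7190, 3960 and 8920 in SM. The Snord110 values rested on at most 3 estimated fragments, and it was also listed at 0 in MOE-CF2 and MOE-CM2.

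The sex-combined libraries bear on these values. In MOE-CF1 Snora78 read 1130 and Snora44 1190, at the SM level, while in MOE-CF2, MOE-CF3 and the CM libraries Snora78 read 104 to 259 and Snora44 444 to 641. Of the 18 snoRNAs with an unadjusted p under 0.05 and lower values in SF, 16 had their highest value of the 6 sex-combined libraries in MOE-CF1, as had 23 of all 43 above 0 throughout, of which 12 were highest in MOE-CM2 and 5 in MOE-CM3. The snoRNAs low in SF were thus mostly high in 1 female library too. By the study's own alignment figures, each SF library had a longer mean insert and a higher share of aligned reads than any SM library. MOE-CF1 was close to SM in both, whereas MOE-CM3, with Snora78 at 259, lay below SM in both. The part of such library differences in this result was not tested. In the vomeronasal organ Snora78 read 218 to 664 in SF and 76.2 to 718 in SM. In the olfactory bulb it read 487 to 1020 in SF and 544 to 766 in SM, so that these groups overlapped in both tissues. Between CF and CM it overlapped in the vomeronasal organ, at 163 to 623 and 76.8 to 682. In the bulb it read 171 to 574 in CF and 915 to 1080 in CM, without overlap and lower in females.

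The host genes showed smaller differences in the median. For 65 snoRNAs exactly 1 tested gene on the same strand contained the snoRNA, and the median difference over these 54 hosts was 0.03. The 18 lower snoRNAs had a median of -1.78 and their 17 hosts a median of -0.01, from -1.20 to 0.72. These snoRNAs were picked for being low in this same comparison and their hosts were not, which widens the gap. Over all 80 snoRNAs tested the median was -0.48. The lowest host was Snhg9, a noncoding host of Snora78, with FPKM 2.21, 5.61 and 6.56 in SF and 14.2, 13.3 and 6.44 in SM, and it was the only host of these with an unadjusted p under 0.05. The reverse stood for Tpt1, host of Snora31, with a difference of -1.0 (unadjusted p 0.000562, limma) while Snora31 differed by -0.09. Reads of a snoRNA and of the host transcript around it overlap in place, and how the authors' quantification divided them was not tested.

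**Figure D4:**
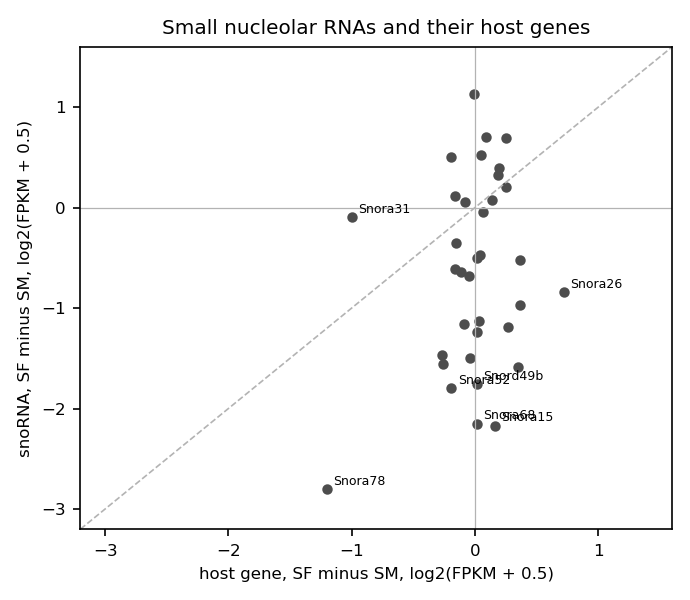
Difference SF minus SM on the log2(FPKM + 0.5) scale of 35 snoRNAs above 0 in all 12 MOE libraries (y) and of the gene that contains each (x); the dashed line marks equal differences. Most hosts lie near 0 while many snoRNAs lie below, with Snora78 at -2.80 and its host Snhg9 at -1.20. Tpt1 at -1.0, with its snoRNA Snora31 at -0.09, is an exception.

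Replication-dependent histone genes, whose transcripts lack a poly(A) tail and accompany DNA synthesis, had a median of -0.24 over 52 genes, with 39 lower and 13 higher in SF. An unadjusted p under 0.05 was found for 8 genes, all lower (15.4%, beside 3.19% of all genes), and 6 lay wholly lower (11.5%, beside 6.61%). H2ac7 was the only one past the adjusted threshold, with FPKM 0.573, 0.672 and 1.54 in SF and 5.48, 4.68 and 2.79 in SM, and fell by 1.77 ± 0.323 (SE; adjusted p 0.0471, limma) on 1.99 to 25.8 estimated fragments per library. It passed in 12 of the 25 alternative fits. Its difference was -1.66 without MOE-SF2 (adjusted p 0.334, limma) and -1.59 with the correction for transcript GC described below (adjusted p 0.164, limma). H3c3 read 6.50, 8.94 and 13.4 against 16.7, 16.6 and 15.3, and H3c11 4.80, 6.98 and 8.30 against 12.1, 12.3 and 11.7. H2ac10 and H2ac11 differed by -0.29 and -0.48. Histone copies are nearly identical in sequence and their separate values are uncertain. The median of the list was -0.09 without MOE-SF2. Over the 28 members with a known GC content it was -0.21 before and -0.05 after GC correction, and the 26 proliferation genes had a median of -0.02.

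Blood cell genes gave low medians in MOE-SF1 and MOE-SF2, but their sums did not separate the sexes. The list of erythroid genes had a median of -0.62 over 7 genes (-0.29 without MOE-SF1 and -0.97 without MOE-SF3), and 5 of the 7 are globin copies. Its level, the median deviation from the gene means, was -0.91, -0.58 and 0.21 in SF and 0.42, -0.12 and 0.30 in SM, whereas its summed FPKM was 183, 233 and 362 in SF and 294, 163 and 277 in SM, lowest in MOE-SM2. Slc4a1, the anion exchanger of red cells, read FPKM 0.418, 0.553 and 1.17 in SF and 1.62, 1.11 and 2.01 in SM (unadjusted p 0.00274, limma). The globins cannot be read one by one, because their copies share reads, and the median above takes them singly. Hbb-bs was listed at 0 in SF and at 63.4, 90.3 and 20.4 in SM, but summed over Hbb-bs, Hbb-bt and Hbb-b1 the FPKM was 166, 212 and 314 in SF and 241, 130 and 233 in SM, which overlapped. Hba-a1 and Hba-a2 together read 12.4, 14.7 and 38.5 in SF and 44.6, 25.6 and 34.1 in SM.

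Neutrophil granule genes gave a median of -0.45 over 10 genes, with levels of -0.70, -0.67 and 0.16 in SF and 0.11, 0.00 and 0.07 in SM. The median was -0.22 without MOE-SF1, -0.26 without MOE-SF2 and -0.77 without MOE-SF3. Its summed FPKM was 212, 360 and 261 in SF and 230, 254 and 273 in SM, highest in MOE-SF2. Prtn3, the proteinase of azurophil granules, read 0.375, 0.220 and 0.854 in SF and 1.47, 1.48 and 0.957 in SM (difference -0.91, adjusted p 0.318, limma). Retnlg, a resistin-like protein, read 0.715, 1.04 and 1.03 against 1.79, 2.16 and 1.58 (difference -0.71). Between CF and CM it differed in the same direction, by -0.61 and without overlap, whereas Prtn3 differed by 0.43 and the list had a median of 0.28. Mpo, the myeloperoxidase, read 0.210, 0.179 and 1.05 against 0.589, 0.6 and 0.889, and S100a8, a calcium-binding protein of neutrophils, 19.7, 19 and 38.0 against 38.5, 30.7 and 30.4. Chil3 went the other way, with 1.82, 1.66 and 1.52 in SF and 1.27, 1.34 and 0.809 in SM. Macrophage genes had a median of 0.10, with 11 of 14 higher in SF and 2 wholly higher (beside 7.51% of all genes). They stood at 0.16, 0.03 and 0.12 in SF and 0.05, 0.09 and -0.01 in SM. How much marrow or blood came with each dissection was not tested.

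Cartilage genes had the largest positive median of the lists of at least 6 tested members, 0.38 over 14 genes, of which 12 were higher in SF. Wholly higher were 2 (14.3%, beside 7.51% of all genes) and wholly lower 1 (7.14%, beside 6.61%). Col2a1, the main collagen of cartilage, read 2.48, 4.68 and 5.62 in SF and 1.53, 3.35 and 3.43 in SM, and Acan, its proteoglycan, 2.49, 3.72 and 3.59 against 1.19, 3.03 and 2.79. Chad, a leucine-rich matrix protein, read 2.68, 3.15 and 3.37 against 1.47, 2.50 and 2.32 (unadjusted p 0.0235, limma), Cnmd differed by 0.29 and Col9a1 by -0.13. MOE-SM1 was the lowest library in Col2a1, Acan and Chad, and without it the median of the list was 0.15. Osteoclast genes had a median of 0.15 over 6 genes, with Ctsk, the bone-resorbing cathepsin K, at 54.2, 40.2 and 55.4 in SF and 40.1, 34.4 and 36.4 in SM, and Acp5 at a difference of 0.15. Osteoblast genes had a median of 0.05.

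Genes induced by interferon, the antiviral cytokine family, had a median of 0.20 over 24 genes, with 20 higher in SF. Wholly higher were 7 (29.2%, beside 7.51% of all genes) and wholly lower 1 (4.17%, beside 6.61%). No member passed the adjusted threshold, and 3, all higher in SF, had an unadjusted p under 0.05 (12.5%, beside 0.953% of all genes; limma). Oas1a, an oligoadenylate synthetase, read 1.07, 0.585 and 0.961 in SF and 0.434, 0.496 and 0.357 in SM (difference 0.55, adjusted p 0.848, limma). Gbp2 and Gbp3, guanylate-binding proteins, read 3.24, 3.2 and 3.27 against 2.12, 2.07 and 2.05, and 1.83, 1.68 and 1.93 against 1.22, 1.20 and 1.04. The spread within each sex was far below the difference in Gbp2. Ifit1 and Ifit2 differed by 0.25 and 0.11 and overlapped, and Isg15 lay wholly lower in SF at 1.03, 0.965 and 1.24 against 1.31, 1.29 and 1.42. The list's level was 0.17, 0.10 and 0.28 in SF and -0.06, 0.06 and -0.07 in SM, without overlap, and its median was 0.16 to 0.25 without MOE-SF2, without MOE-SF3, after GC correction or after quantile normalization. In the sex-combined mice the median was 0.16, where the median of all genes was 0.1.

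Chaperones of the endoplasmic reticulum, which fold secreted proteins, had a median of 0.18 over 21 genes, 18 higher in SF, 10 wholly higher and 1 wholly lower, beside 7.51% and 6.61% of all genes. Hspa5, the main chaperone, read 140, 157 and 155 in SF and 122, 120 and 110 in SM (difference 0.36, unadjusted p 0.156, limma). Hsp90b1 read 137, 133 and 133 against 114, 103 and 107, and Pdia3, a disulfide isomerase, 42.1, 38.1 and 36.7 against 31.3, 31.6 and 32.5. Trib3, a stress-induced pseudokinase, was the wholly lower member (difference -0.45, unadjusted p 0.0299, limma). The list's level was 0.09, 0.15 and 0.21 in SF and 0.02, -0.02 and -0.04 in SM, and the median stayed at 0.14 to 0.22 under the settings just named (0.20 without MOE-SF2). Motile cilia genes of the respiratory epithelium showed a smaller difference of this kind, a median of 0.10 over 23 genes. Of these 15 were higher and 7 wholly higher (beside 7.51% of all genes), among them Dynlrb2, a dynein light chain, at 59.2, 49.7 and 47.3 against 43.3, 40.1 and 37.7. Foxj1, the ciliary transcription factor, read 22.6, 18.2 and 25.3 against 29.3, 30.6 and 24.9 and overlapped.

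Immediate early genes, which neurons and other cells induce soon after a stimulus, had a median of -0.21 over 12 genes, 11 of them lower in SF, but no member was wholly lower. Fos read 1.48, 0.730 and 2.57 in SF and 1.69, 1.68 and 1.48 in SM, and Jun 9.34, 5.25 and 13.6 against 11.1, 9.96 and 9.43. In both, MOE-SF2 held the lowest and MOE-SF3 the highest value of the 6, and without MOE-SF2 the median of the list was -0.03. Genes whose level in olfactory neurons follows activity had a median of -0.13 over 15 genes. Cytosolic ribosomal protein genes (67) and nuclear genes of oxidative phosphorylation (75) had medians of 0.03 and 0.05, cytochrome P450 genes -0.07 over 25, and genes of glutathione and xenobiotic conjugation 0.06 over 41.

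The remaining genes with the smallest p among those not overlapping and above 0 throughout did not pass the adjusted test. Ccl12, a monocyte chemokine, read 3.34, 2.62 and 2.90 in SF and 1.70, 1.19 and 0.934 in SM (difference 0.98, adjusted p 0.218, limma). Wfdc3, a whey acidic protein domain gene, read 3.64, 3.31 and 3.96 against 2.36, 2.14 and 1.5. Fcgbp, a mucin-like protein of mucus, read 5.70, 5.57 and 4.15 against 2.29, 3.10 and 2.08, and in the sex-combined mice differed in the same direction, by 0.93 against 0.92 here. Clca3a2, of the chloride channel accessory family, differed by 0.75. On the lower side, Nupr1l read 1.76, 1.52 and 2.12 against 3.45, 3.80 and 3.41, and Tpt1, the translationally controlled tumor protein, 6.83, 6.10 and 9.35 against 16.9, 13 and 15.8. Tpt1 was also high in MOE-CF1, at 11.4, against 5.2 to 8.1 in the other 5 sex-combined libraries, as most of the lower snoRNAs were.

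The 4 genes called with values of 0 were of a different kind. Bbof1, a ciliary basal body gene, read 3.14, 2.95 and 3.27 in SF and was listed at 0 in the 3 SM libraries, but read 2.14 to 3.72 in all 6 sex-combined libraries of both sexes. Rbm14 and Scamp3 were listed at 0 in SF and read 2.82 to 4.15 and 1.41 to 1.76 in SM. In the sex-combined mice Rbm14 read 2.99 to 3.47 in CF and 0, 0 and 2.76 in CM, and Scamp3 was listed at 0 in CM and in all CF libraries but MOE-CF2 (1.29), so that the zeros did not follow sex. Mir682 was listed at 0 in SF and read 180, 264 and 189 in SM, on at most 4 estimated fragments. A listed 0 may be a failed estimate, and 220 of the 13323 genes were listed at 0 in some MOE library.

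The base composition of transcripts moved with the comparison. The GC content of the longest transcript had a median of 49.3% over all genes, of 45.0% over the 127 genes higher in SF at an unadjusted p under 0.05 and of 56.4% over the 425 lower genes. In 20 bins of GC, the median difference ran from 0.069 in the lowest bin (37.0% GC) to -0.231 in the highest (61.0%). The median deviation of the upper quartile of genes by GC minus that of the lower quartile was -0.164, -0.161 and 0.022 in SF and 0.089, 0.207 and 0.041 in SM. After the median of each GC bin was subtracted per library, 891 genes were higher and 794 lower at an unadjusted p under 0.05, and 6 genes passed the adjusted threshold, 2310057J18Rik, Crisp1, Bbof1, Olfr912, Olfr1295 and Olfr213. The subtraction also took out the overall shift of each library, which the main fit leaves in. Upper quartile scaling, which does not use GC, gave 951 higher and 1145 lower at the same unadjusted p (limma). The parts of GC and of library shifts in these changes cannot be told apart. Over the members with a known GC content, the list medians of erythroid (-0.66), snoRNA (-0.47), neutrophil (-0.49), cartilage (0.37), interferon (0.20) and chaperone genes (0.22) were close to the uncorrected ones, while those of immediate early genes (-0.21 before, -0.09 after) and of 28 histone genes (-0.21 before, -0.05 after) were nearer 0. At an unadjusted p under 0.05 then stood 10 of 24 interferon-induced genes and 9 of 21 chaperones on the higher side (41.7% and 42.9%, beside 6.73% of all genes). Odorant receptors, with a median GC of 38.2%, had a median of -0.07 after the correction.

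**Figure D5:**
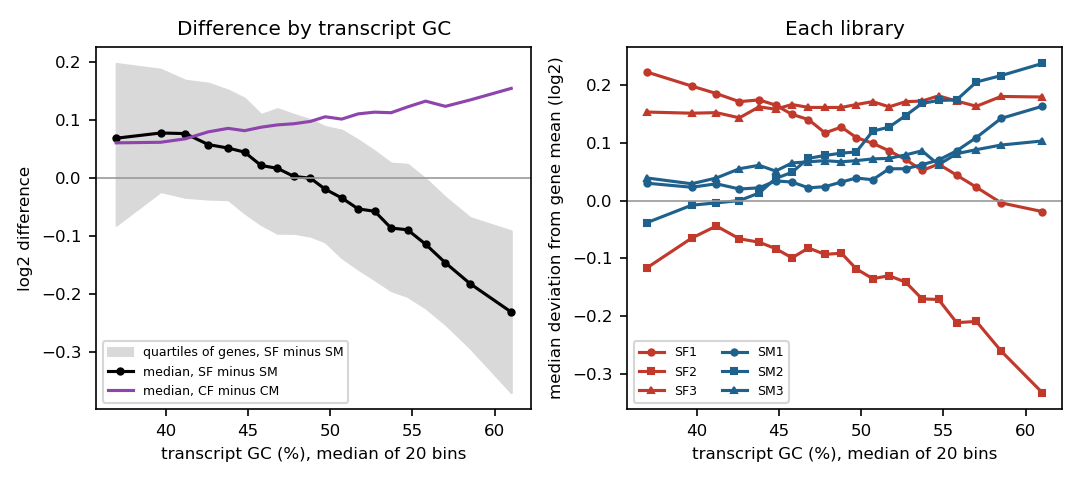
Left, median SF minus SM difference (black, with quartiles of genes in grey) and median CF minus CM difference (purple) in log2 units by transcript GC content in percent, in 20 bins of genes; right, median deviation from the gene mean in each SF and SM library. The difference runs from 0.069 at 37.0% GC to -0.231 at 61.0% GC, and MOE-SF1 and MOE-SF2 decline with GC while MOE-SM1 and MOE-SM2 climb.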

How the data were processed

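Per the labels and the submitters' processing notes, the authors aligned paired reads of a stranded, ribosome-depleted total RNA library with TopHat2 2.1.0 and quantified them with Cufflinks 2.2.1.0 on mm9, and deposited 1 table per library with the FPKM of each RefSeq transcript at each locus and its confidence limits. Whether the quantification used strand is not given in the sources used here. FPKM is a relative unit, so that a few very abundant transcripts lower all others, and the Cuffdiff comparison named in the notes needs alignments and was not repeated.

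Of 40150 entries in the MOE tables, 99.7% were assigned to a gene symbol by accession, and FPKM was summed per gene (24634 genes). Values of 5 genes whose status was not marked as successful were left out. The number of fragments behind a value was estimated by squaring FPKM over its standard error, with the distance to the upper 95% limit divided by 2 as that error, and covers counting error only. Genes whose FPKM averaged 0.5 or more in the 12 MOE libraries were fitted as log2(FPKM + 0.5) with limma 3.58.1 in R 4.3.3 (eBayes with trend, 4 group means), p-values were two-sided and Benjamini-Hochberg adjusted (13757 genes in the fit), and the 13323 autosomal genes were counted. Among the 434 other genes 6 passed between SF and SM. The labels call the libraries biological replicates, each a pool, so that p-values measure the spread between pools.

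The members, 50 gene lists (26 of cell types, 24 of pathways) and the tests were chosen with earlier results of these data known. Lists are described by counts and medians without a test. Genes named are the sex and tissue checks, the genes past the adjusted threshold, the 10 with the smallest p in each direction that did not overlap and were above 0 throughout, and, for the mature neuron list and the 10 lists of at least 6 tested members farthest from the all-gene median, the first 2 listed members tested and the 3 with the smallest p that did not overlap. Further genes were picked once their values had been seen. GC content and length came from the longest GENCODE M21 transcript of a gene, known for 99.3% of genes, and snoRNA hosts from the same annotation (GRCm38); printed coordinates are those of the deposited tables (mm9). The fit was tested on simulated data with independent normal noise, where 2.80% of calls at a log2 change of 1 were false. Shifts of whole libraries and listed zeros were not simulated, so that this share may not hold for the real libraries. Alternatives were other pseudocounts, filters and scalings, library weights, a replicate block, a fit of the 6 libraries alone, each library left out, and corrections for GC and length that were chosen after seeing the data. Tables were joined with Python 3.11.15 (pandas 2.3.3, numpy 2.4.6) and plotted with matplotlib 3.10.9.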

Additional observations from a re-analysis of the deposited data

Results flagged for a closer look

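The difference between the sexes was itself compared between the housings by the interaction term of the limma fit, and 5 autosomal genes (0.0375%) passed an adjusted p of 0.05. For H2ac7 the interaction was -2.70 on the log2 scale (adjusted p 0.0488, limma), with a difference of -1.77 in the sex-separated and 0.94 in the sex-combined mice. Its FPKM was 5.69, 3.76 and 4.20 in CF and 0.994, 3.62 and 2.38 in CM. The other 4 were listed at 0 in some libraries. The interaction was 2.87 for Bbof1 (adjusted p 1.6e-05, limma), -4.98 for Rbm14 (adjusted p 0.00571, limma), -12.75 for Mir682 (adjusted p 0.00571, limma) and -3.01 for Oxsm (adjusted p 0.0223, limma), and since these values rest on a listed 0, which may be a failed estimate, their size cannot be read as a fold change. At an unadjusted p under 0.05 stood 623 genes (4.68%).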

How the results depend on the processing

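The number of genes past the adjusted threshold between SF and SM was 8, and was 23 when genes listed at 0 were left out, 15 in a fit of the 6 libraries alone, 3 without a filter, 1744 with library weights, 12 with the replicate block, and 6 to 12 with each library left out. Between CF and CM it was 1, and was 3 without genes listed at 0, 6 with weights and 2 with the replicate block (1 to 4 with each library left out, 4 without MOE-CM3, 3 without MOE-SM1 and 2 without MOE-CF2 or MOE-CM1). For the interaction it was 5, and was 19 without genes listed at 0, 2335 with weights, 3 at a pseudocount of 0.1, and 2 without a filter, after quantile or upper quartile scaling, and under each of the 3 corrections for GC that were chosen after seeing the data (3 to 11 with each library left out, 3 without MOE-SF2, 8 without MOE-CM3 and 11 without MOE-SF3).

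Genes at an unadjusted p under 0.05 numbered 552 (127 higher and 425 lower in SF). The split of directions depended on the scaling: 2745 higher and 1542 lower (4287) with weights, 1087 and 894 (1981) after quantile scaling, 951 and 1145 (2096) after upper quartile scaling, 891 and 794 (1685) after GC correction, 932 and 825 (1757) with GC correction and replicate block, 800 and 837 (1637) with GC and length correction, 263 and 643 (906) without a filter, and 508 and 587 (1095) in the 6 libraries alone. With each library left out the counts were 337 to 1524 in all, 110 to 717 higher and 172 to 846 lower; they were 717 and 807 without MOE-CM3, 170 and 172 without MOE-SF2, 956 in all without MOE-SF3 and 337 without MOE-SM2. Genes that did not overlap numbered 1882, and 2969 after upper quartile scaling. The cause was not tested.

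Some list medians moved by more than the spread between replicates. GC correction, with or without the replicate block, gave 0.18 for horizontal basal cells, 0.07 for endothelial cells (also with length correction) and 0.17 for macrophages, and length correction 0.11 for collagens. Weights gave -0.25 for nasal glands, 0.14 for ciliated cells and 0.04 for cartilage. Ciliated cells also stood at 0.14 at a pseudocount of 0.1 and after quantile scaling, respiratory secretory cells at 0.16 after quantile scaling, and acute inflammation at -0.08 with a mean FPKM of at least 1. With each library left out, nasal glands ranged from -0.21 to 0.39, cartilage from 0.15 to 0.41, adipocytes from -0.02 to 0.39, MHC class II from -0.24 to 0.01 and acute inflammation from -0.22 to -0.07.

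Among single genes 24 values changed sign, none of a gene past the threshold with all libraries. Omp was 0.07 after GC correction with or without the replicate block, 0.03 with length correction, 0.09 with weights, 0.20 after quantile scaling and 0.11 without MOE-SF2; Snora16a was 0.40 with weights and 0.30 without MOE-SF2. With each library left out, Omp ranged from -0.17 to 0.11, Snora16a from -0.51 to 0.30, Fos from -0.44 to 0.22 and Jun from -0.50 to 0.14 (all highest without MOE-SF2), Cnga2 from -0.04 (without MOE-SF1) to 0.26, and Hba-a1 from -0.13 (without MOE-SM3) to 2.57. The gland genes ranged from -3.44 to 1.35 (Bpifb9a), from -1.27 to 0.40 (Mup4), from -3.01 to 0.13 (Mup5) and from -1.53 to 1.31 (Odam, also -1.71 with weights and -0.12 at a pseudocount of 0.1), each lowest without MOE-SF2. For libraries with the same replicate number, correlations of their deviations ran from -0.079 to 0.239, highest for MOE-CF2 and MOE-CM2. With so few libraries per group these values cannot settle whether the numbers pair the libraries. With the replicate block 154 genes were higher and 369 lower at an unadjusted p under 0.05 (limma). Low fragment numbers limit some genes: Snora15, Snora68 and Prtn3 rested on 1 to 3 estimated fragments in the SF or SM library where each had the fewest.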
